A study of Homo sapiens with 3 samples.

Results

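The genes described here present peptides on MHC class I: the heavy chains HLA-B, HLA-C, HLA-E and HLA-F, their light chain B2M, the peptide transporter subunits TAP1 and TAP2, and the immunoproteasome subunits PSMB8 and PSMB9. They were taken by name: every probe whose gene name in the array files is one of these was kept, each as its own measurement. This gave 9 of 43317 gene names and 15 of 58201 probes. Expression was measured with 1-colour arrays in HCT116, a human colorectal cancer cell line, after knockdown of SMARCA4, the ATPase of SWI/SNF complexes, which move nucleosomes. There were 3 groups with 1 array each: SMARCA4-KD1 and SMARCA4-KD2, which received small interfering RNA against SMARCA4, and NC, which received a scrambled control. The sample titles name SMARCA4 and the treatment field names PRMT1, and the number of each knockdown was taken from that field. The comparison of each knockdown with NC asks which genes depend on SMARCA4 in these cells. The sequence of SMARCA4 siRNA-1 from the labels is shown because it is part of the treatment. The labels do not say which array received it or which strand is written.
SMARCA4 siRNA-1: ucgcuuugguucgcaaauc

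Cells that carry MHC class I show short peptides of their own proteins to CD8 T cells. Proteasomes cut the proteins, the TAP transporter carries the peptides into the endoplasmic reticulum, and a heavy chain bound to B2M takes up a peptide there and moves to the surface. Interferons raise most genes of this pathway, and loss of its parts, B2M among them, is a known route of immune escape in colorectal cancer.

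SMARCA4 itself was read first (probe A_23_P39034, chr19:11172673-11172732 in hg19, the build of all probe positions below). Its signal, the background-subtracted intensity of the extraction software, was 3960.2 (SMARCA4-KD1), 4129 (SMARCA4-KD2) and 14026 (NC). It was low on both knockdown arrays, at 26.6% and 28.8% of NC after scaling each array to its 75th percentile, or -1.91 and -1.80 on the log2 scale. PRMT1, the arginine methyltransferase named in the treatment field, had signals of 9801, 10147 and 7683 in the same order. PRMT1 was therefore not low on either knockdown array, with differences of 0.27 and 0.37. Of 8 markers of colorectal epithelium, 5 were well above background on all arrays (CDH1, EPCAM, KRT18, KRT19 and KRT8), and VIL1 and LGALS4 on none. KRT20 was well above background in the knockdowns only, and these 3 markers are named after their values were seen. The epithelial markers had a summed signal of 427732, 417309 and 396952. Leukocyte markers, of which 4 of 6 were on the array, summed to 283.0, 237.2 and 252.1, fibroblast markers to 544.9, 452.5 and 418.3, and endothelial markers to 164.5, 194.4 and 172.5. In all of these sums, probes not well above background and under the array's floor (16.9, 16.2 and 17.7) count as that floor. Any part of the leukocyte, fibroblast and endothelial markers in the differences below was not tested.

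Among the class I genes, HLA-F at 1 of its probes and PSMB9 were at least 1.5-fold lower than NC in both knockdowns, and no member probe was at least 1.5-fold higher in either. With spike-in scaling no member probe was past 1.5-fold on the lower side, beside 4.99% and 3.47% of all probes, and 2 of 13 (SMARCA4-KD1) and 1 of 13 (SMARCA4-KD2) were on the higher side, beside 26.8% and 27.4%. Of the 15 probes, 13 probes of 8 genes were well above background on all 3 arrays. The remaining probes, that of PSMB8 and A_23_P368067 of TAP2, were not well above background on any array and give no fold. In SMARCA4-KD1, 2 of 13 member probes were lower, beside 12.1% of all 29334 probes tested, and 0 were higher, beside 11.5%. In SMARCA4-KD2, 2 of 13 were lower, beside 9.83%, and 0 were higher, beside 10.2%. Both comparisons use the same NC array. The same pair of probes was lower in both, 15.4% of the member probes tested beside 8.00% of all probes, and 0 were higher in both, beside 6.56%. The median difference of the 13 probes came to -0.05 for SMARCA4-KD1 and 0.07 for SMARCA4-KD2, beside -0.0006 and 0.02 over all probes, and with spike-in scaling, which moves all probes up, both were above 0 (0.25 and 0.38). Directly between the knockdowns, 0 member probes were past 1.5-fold, beside 2.98% higher and 3.36% lower in SMARCA4-KD1, and the median was -0.13 beside -0.01.

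**Figure D1:**
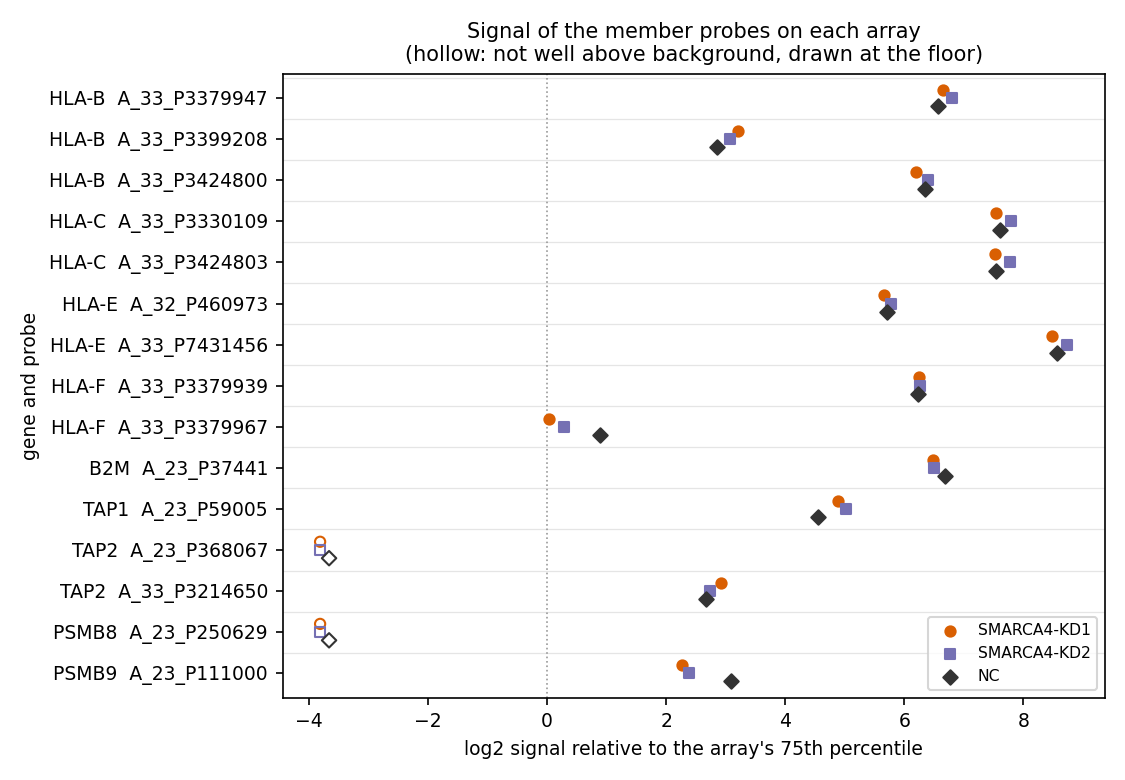
Signal of each member probe on each array, as log2 relative to the array's 75th percentile (horizontal), 1 point per array and hollow where not well above background. For PSMB9 and for HLA-F A_33_P3379967 the NC point lies to the right of both knockdown points, at 3.09 and 0.90.

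HLA-B and HLA-C are classical heavy chains, which show peptides to CD8 T cells. HLA-B A_33_P3379947 (chr6:31321653-31321712, minus strand) had signals of 23792 (SMARCA4-KD1), 25305 (SMARCA4-KD2) and 21249 (NC). HLA-B A_33_P3424800 (chr6:31321663-31321722, minus strand) had 17435, 19151 and 18069. Relative to the percentile, the first was above NC in both knockdowns (0.08 and 0.22), and the second was on either side of NC (-0.14 and 0.05). The remaining HLA-B probe, A_33_P3399208, has no position in the files and gave 2179, 1920 and 1622, the highest in SMARCA4-KD1. Its differences were 0.34 and 0.21, so that the probes named HLA-B spanned 0.48 in SMARCA4-KD1 and 0.17 in SMARCA4-KD2. HLA-C A_33_P3330109 (chr6:31236617-31236676, minus strand) had 44164, 50817 and 43444, and HLA-C A_33_P3424803 had 43650, 49753 and 41430. At both probes named HLA-C the SMARCA4-KD2 array was the high one, with 0.19 and 0.23 against NC, while SMARCA4-KD1 gave -0.06 and -0.01. Of these, A_33_P3424803 lies over the HLA-B probes (next paragraph). The sign of these small values depends on the scaling: with quantile normalization A_33_P3379947 of HLA-B was at -0.04 in SMARCA4-KD1 and A_33_P3424800 at -0.03 in SMARCA4-KD2, with normexp both HLA-C probes were at 0.01 in SMARCA4-KD1, and with spike-in scaling all of these probes were above 0.

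Of the 5 probes named HLA-B or HLA-C, 3 share sequence and are not independent readings. HLA-C A_33_P3424803 lies at chr6:31321644-31321703 (minus strand), which overlaps both positioned HLA-B probes, and HLA-B A_33_P3424800 shares a run of 41 bases with it. The other probe named HLA-C, A_33_P3330109, does not overlap them. Which gene A_33_P3424803 reads was not tested, so A_33_P3330109 is the only HLA-C reading apart from the HLA-B probes. Across the 41 positions that the 3 overlapping probes cover in common, HLA-B A_33_P3379947 differs from A_33_P3424803 at 1, the substitution G16T, and HLA-B A_33_P3424800 at 0. The stretches, 30 bases each at chr6:31321672-31321701 (hg19, minus strand), are shown because they carry the only base that separates these probes there, marked by the capital. Positions count from 1 at the 5′ end of the stretch, with the HLA-C probe as the reference.
HLA-C A_33_P3424803, shared stretch: agtcaattcctggaaGttgagagagcaaat
HLA-B A_33_P3424800, shared stretch: agtcaattcctggaaGttgagagagcaaat
HLA-B A_33_P3379947, shared stretch: agtcaattcctggaaTttgagagagcaaat

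HLA-E presents signal peptides of other class I molecules to NKG2A receptors of natural killer cells. HLA-E A_32_P460973 (chr6:30460729-30460788, plus strand) had signals of 11998 (SMARCA4-KD1), 12489 (SMARCA4-KD2) and 11734 (NC). HLA-E A_33_P7431456 (chr6:30460882-30460941, plus strand) had 84746, 97474 and 84558. SMARCA4-KD2 was the highest array at both, with 0.06 and 0.17 against NC, and SMARCA4-KD1 gave -0.05 and -0.08. With spike-in scaling all 4 values were above 0, and with quantile normalization A_32_P460973 was below 0 in SMARCA4-KD2 as well, at -0.05. With normexp that probe was above 0 in both, at 0.03 and 0.13. HLA-E A_33_P7431456 shares runs of bases with probes of other genes, so it may not read HLA-E alone.

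HLA-F is a nonclassical heavy chain that also reaches the surface without peptide, and its probes gave different results. HLA-F A_33_P3379967 (chr6:29692114-29692173, plus strand) had signals of 241 (SMARCA4-KD1), 279 (SMARCA4-KD2) and 416 (NC), over a local background of 24.5 to 28.0. NC was the high array, and both knockdowns were low, at 54.7% and 65.6% of NC after scaling, or -0.87 and -0.61. With normexp background correction the second of these was inside 1.5-fold, at -0.50, and with spike-in scaling both were, at -0.57 and -0.29. Of all probes tested, 5.30% in SMARCA4-KD1 and 9.11% in SMARCA4-KD2 had a lower difference. HLA-F A_33_P3379939 (chr6:29693280-29693338, plus strand) had 17976, 17600 and 16764, with differences of 0.01 and 0.04, which were below 0 with quantile normalization (-0.10 and -0.05). The probes of HLA-F were thus 0.89 apart in SMARCA4-KD1 and 0.65 apart in SMARCA4-KD2. Their sequences are shown because the low result rests on 1 of them, and the files assign them to different transcripts of the gene.
HLA-F A_33_P3379967: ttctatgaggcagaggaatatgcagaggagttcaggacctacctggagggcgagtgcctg
HLA-F A_33_P3379939: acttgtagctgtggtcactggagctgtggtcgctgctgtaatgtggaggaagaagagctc

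B2M, the light chain that every class I heavy chain above needs for a stable complex, was the only member with repeated spots. Its probe A_23_P37441 (chr15:45007773-45007832, plus strand) had a signal of 21243 in SMARCA4-KD1 from 9 spots, 20572 in SMARCA4-KD2 from 10 and 22964 in NC from 9. Before scaling, the spots ran from 20920.2 to 21518, from 20198 to 21085 and from 22597 to 23739, so that those of NC lay above those of both knockdowns. Between spots of an array the SD was 0.013, 0.022 and 0.025 on the log2 scale, which is the error of the spots and not of the cultures. After scaling, B2M was at -0.20 for SMARCA4-KD1 and -0.19 for SMARCA4-KD2, inside 1.5-fold, and with spike-in scaling it was on the other side of NC, at 0.11 and 0.13.

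TAP1 and TAP2 form the transporter that moves peptides into the endoplasmic reticulum. TAP1 A_23_P59005 (chr6:32813210-32813269, minus strand) had signals of 7024 (SMARCA4-KD1), 7430 (SMARCA4-KD2) and 5256 (NC). NC was the low array, with differences of 0.33 and 0.47, inside 1.5-fold in both. With spike-in scaling TAP1 was past it, at 0.64 and 0.78. TAP2 A_33_P3214650 (chr6:32793222-32793281, minus strand) had 1795, 1516 and 1414, the highest in SMARCA4-KD1, and differed from NC by 0.26 and 0.07. TAP2 A_23_P368067 (chr6:32789804-32789863, minus strand), with signals of 3.48, 12.4 and 3.64, gave no measurement of the gene.

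PSMB8 and PSMB9 are catalytic subunits that replace constitutive ones in the immunoproteasome, the form that interferon gamma induces. PSMB9 A_23_P111000 (chr6:32823918-32823977, plus strand) had signals of 1142 (SMARCA4-KD1), 1197 (SMARCA4-KD2) and 1895 (NC). NC was high and both knockdowns were low, close to each other, at 56.8% and 61.7% of NC after scaling, or -0.82 and -0.70. With spike-in scaling both were inside 1.5-fold, at -0.51 and -0.38. Of all probes tested, 6.23% and 6.90% had a lower difference. PSMB8 A_23_P250629, whose position chr6:32810023-32810490 (minus strand) spans more than the probe's 60 bases, had signals of 8.03, 10.4 and 5.78, not well above background on any array. PSMB8 was therefore not measured by these arrays. The PSMB9 probe is shown because the gene's result rests on it alone.
PSMB9 A_23_P111000: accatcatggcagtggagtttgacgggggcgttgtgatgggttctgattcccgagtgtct

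**Figure D2:**
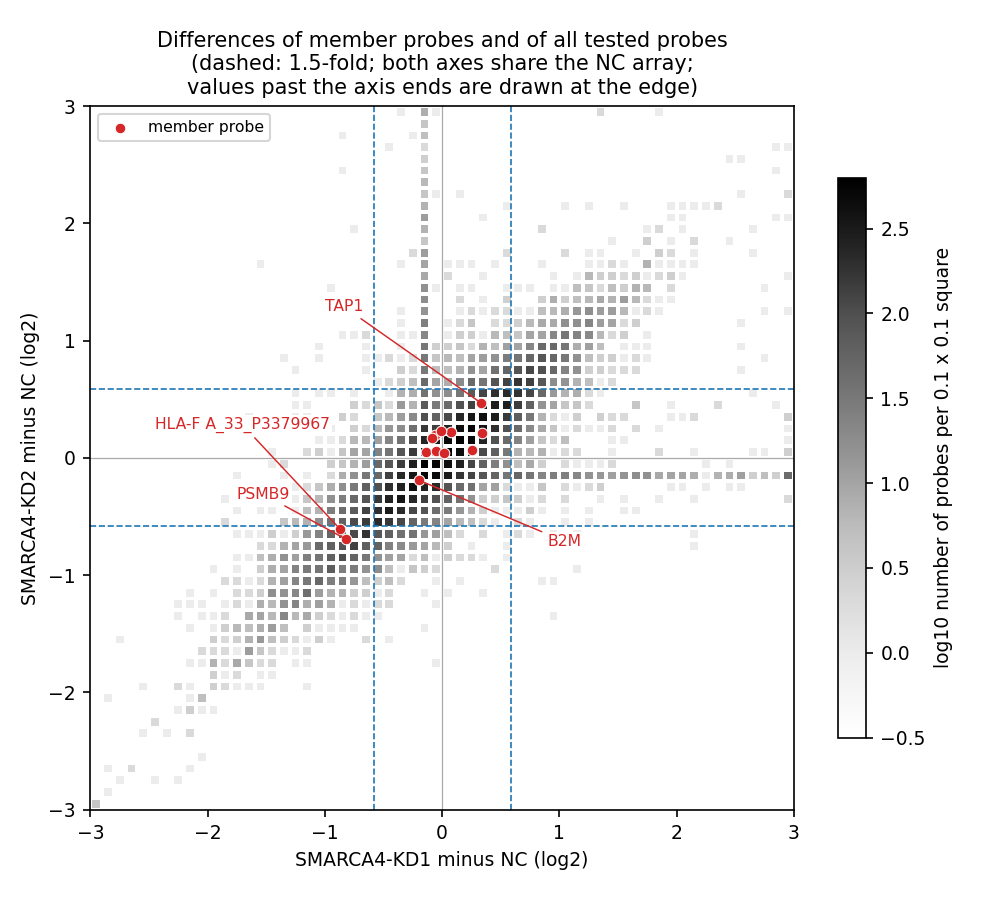
Difference from NC (log2) in SMARCA4-KD1 (horizontal) and SMARCA4-KD2 (vertical) of the 13 member probes in red over the number of probes in each square for all 29334 probes tested, with 1.5-fold dashed. The axes share the NC array, and among members PSMB9 and HLA-F A_33_P3379967 lie past the lower line on both axes, a call that spike-in scaling ends.

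Across the members, 8 of 13 probes were on the same side of NC in both knockdowns, 3 below and 5 above, or 61.5% beside 80.5% of all probes tested. The 3 below were HLA-F A_33_P3379967, B2M and PSMB9, while with spike-in scaling B2M was above 0 and all 13 were on the same side. The 11 probes inside 1.5-fold ran from -0.20 to 0.34 in SMARCA4-KD1 and from -0.19 to 0.47 in SMARCA4-KD2. For scale, the error that the extraction software gives to a difference of 2 arrays was 0.20 on the log2 scale at the median member probe, and 8 of 13 differences in SMARCA4-KD1 and 7 of 13 in SMARCA4-KD2 were inside it. This error leaves out the spread between cultures, which 1 array per group cannot give. SMARCA4-KD1 was below SMARCA4-KD2 at 11 of 13 member probes, or 84.6%, beside 51.6% of all probes, with differences from -0.26 to 0.19, of which 9 were inside the software's error. The 13 probes are not all independent readings, since the overlapping HLA-B and HLA-C probes, all among these 11, share sequence.

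With both knockdowns taken as replicates, limma put 0 of 13 member probes, and 0 of 29334 probes (0%), under an adjusted p of 0.05. At an unadjusted p under 0.05 there were 3 of 13 member probes (PSMB9, HLA-F A_33_P3379967 and TAP1) beside 8764 of all probes, or 29.9%, and a t-test across all probes with the 1.5-fold threshold called 573 probes and 0 members at p 0.01. PSMB9 had a log2 difference of -0.76 ± 0.10 (SE), lower in 2 of 2 knockdowns, with an adjusted p of 0.114 in limma and a range of 0.000183 to 0.139 over the alternatives. For HLA-F A_33_P3379967 it was -0.74 ± 0.17, again lower in both, with an adjusted p of 0.136 in limma and a range of 0.00525 to 0.160. TAP1, higher in both, had 0.40 ± 0.09 and an adjusted p of 0.138 in limma, with a range of 0.00766 to 0.187. When limma was given the 25282 probes well above background on all arrays, these 3 member probes were called, among 6666 probes in all. The fit has 1 residual degree of freedom and assumes that NC varies like the knockdowns. The knockdown arrays shared a slide and NC was on another, so slide and knockdown cannot be told apart.

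The scale between arrays decides the direction of several members. The 8 spike-in probes were lower relative to the 75th percentile in the knockdowns, by -0.30 and -0.32, and scaling to them moved the median of all probes to 0.30 in SMARCA4-KD1 and 0.33 in SMARCA4-KD2. Of the probes past 1.5-fold, 84.3% and 88.7% were then higher than NC, beside 48.7% and 51% with the percentile. On that scale PSMB9 and HLA-F A_33_P3379967 were below NC but inside 1.5-fold. TAP1 was at least 1.5-fold higher in both knockdowns and HLA-B A_33_P3399208 in SMARCA4-KD1, at 0.64. Relative to the median of all probes, the members' median was -0.05 and 0.05 under either scaling, by construction, since spike-in scaling adds 1 constant to each comparison. This relative median was 0.02 and 0.11 with normexp and -0.08 and 0.06 with quantile normalization.

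**Figure D3:**
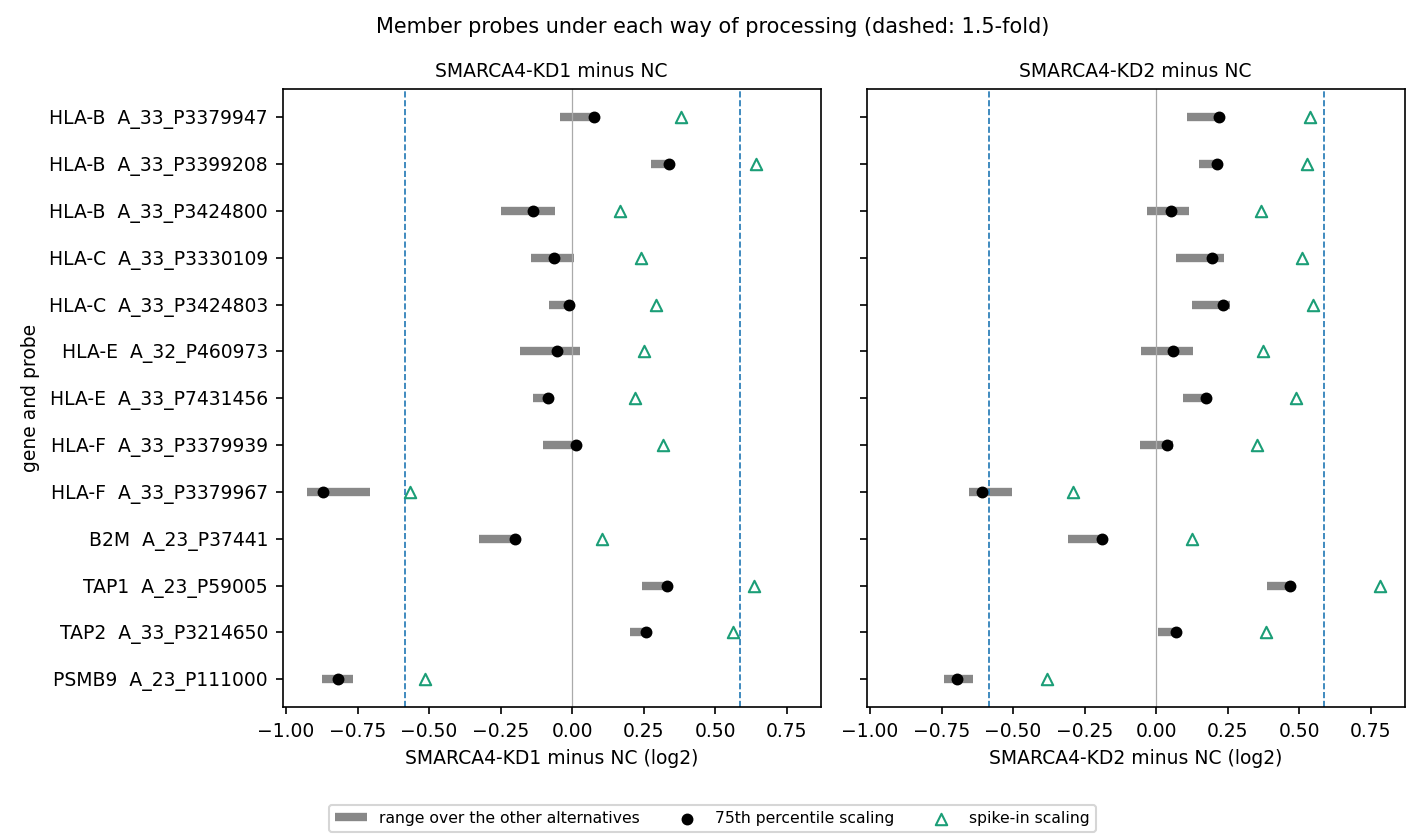
Difference from NC (log2, horizontal) of the 13 member probes in SMARCA4-KD1 (left) and SMARCA4-KD2 (right), with the percentile scaling as a dot, the range over the other alternatives as a bar and spike-in scaling as a triangle. PSMB9 is below NC under each, at -0.87 to -0.51 in SMARCA4-KD1, while B2M is below NC as a dot and above it as a triangle, at 0.11.

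Members differ in position and in the letters before their start sites. TAP2, PSMB8, TAP1 and PSMB9 are consecutive genes on chromosome 6, and B2M lies on chromosome 15. TAP1 and PSMB9 run in opposite directions from start sites 488 bases apart in GRCh38.p14, or 1431 bases for the second TAP1 start site in the RefSeq table, and of this pair TAP1 was above NC and PSMB9 below it in both knockdowns, with the percentile and with spike-in scaling. RefSeq promoter windows, from 250 bases before to 50 after a start site, matched 8 of the 9 genes with 10 windows, since TAP1 and PSMB8 have more than 1, with none for HLA-E. They were searched on both strands for 4 motifs: GAAANNGAAA and GAANNGAAA, forms of the interferon-stimulated response element, and CCAAT and TGACG, cores of the elements that NF-Y and CREB family factors bind. GAAANNGAAA was found in 5 of 10 member windows (of HLA-F, B2M, TAP1, TAP2 and PSMB8) and in 3.57% of all 35116 windows. GAANNGAAA was found in 4 of 10 (of HLA-B, HLA-C, TAP2 and PSMB8) and in 7.66% of all. CCAAT was found in 6 of 10 and in 34.6% of all, and TGACG in 6 of 10 and in 24.6% of all. The window of the nearer TAP1 start site overlaps that of PSMB9 by 13 bases with the same CCAAT match, while the window of the second TAP1 start site overlaps it by 0 bases and holds none of the 4 motifs.

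The stretches below run from 5 bases before the first match to 5 after the last one upstream of the start, within the window, with the matches in capitals (matches that overlap run together). They are credited to RefSeq (GRCh38.p14) and are shown so that the lower gene PSMB9 and HLA-F can be read beside TAP1, B2M and the classical genes. HLA-B is at chr6:31357226-31357339 (minus strand), HLA-C at chr6:31272139-31272289 (minus strand), HLA-F at chr6:29723273-29723386 (plus strand), B2M at chr15:44711368-44711477 (plus strand), TAP1 at chr6:32853818-32853954 (minus strand), TAP2 at chr6:32838765-32838807 (minus strand) and PSMB9 at chr6:32853944-32854057 (plus strand).
HLA-B promoter 1: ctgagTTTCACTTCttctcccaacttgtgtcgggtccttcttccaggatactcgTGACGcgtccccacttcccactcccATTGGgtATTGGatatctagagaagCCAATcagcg
HLA-C promoter 1: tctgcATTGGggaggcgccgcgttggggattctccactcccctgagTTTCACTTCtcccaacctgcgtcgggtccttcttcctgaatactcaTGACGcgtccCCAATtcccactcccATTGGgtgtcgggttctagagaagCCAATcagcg
HLA-F promoter 1: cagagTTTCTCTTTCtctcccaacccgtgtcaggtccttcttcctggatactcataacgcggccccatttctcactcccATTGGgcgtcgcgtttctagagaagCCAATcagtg
B2M promoter 1: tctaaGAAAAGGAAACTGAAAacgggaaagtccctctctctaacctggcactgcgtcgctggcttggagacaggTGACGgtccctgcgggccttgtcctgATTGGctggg
TAP1 promoter 1: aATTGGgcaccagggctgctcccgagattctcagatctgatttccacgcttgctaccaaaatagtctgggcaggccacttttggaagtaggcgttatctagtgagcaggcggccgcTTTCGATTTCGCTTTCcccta
TAP2 promoter 1: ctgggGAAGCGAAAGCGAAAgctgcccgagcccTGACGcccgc
PSMB9 promoter 1: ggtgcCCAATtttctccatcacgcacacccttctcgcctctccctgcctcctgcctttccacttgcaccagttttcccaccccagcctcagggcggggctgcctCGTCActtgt
HLA-B, HLA-C and HLA-F have a response element match at -155, -151 and -156 from the start, each followed by CCAAT matches. TAP1 has overlapping GAAANNGAAA matches at -134 and -128 and B2M at -144 and -138. PSMB9 has neither response element form in its window, which reaches only 250 bases before its start, with CCAAT at -243 and TGACG at -144. The TAP1 response element matches lie between the nearer TAP1 start site and that of PSMB9, outside the PSMB9 window. A match describes letters and was not set against binding data.

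HLA-G, a nonclassical heavy chain, with signals of 60922 (SMARCA4-KD1), 61610.0 (SMARCA4-KD2) and 54010 (NC), was at 0.09 and 0.16. In the list of peptide loading and trimming, which chaperones class I and cuts peptides to length, 1 of 10 probes tested was at least 1.5-fold higher in both knockdowns and 1 lower, 10% each beside 6.56% and 8.00% of all probes. The median of this list was -0.13 and -0.21, and above 0 with spike-in scaling, at 0.17 and 0.11. The higher one was A_24_P345993 of the chaperone CANX (552, 498 and 310.2 in the same order), at 0.75 and 0.65, while its other probe was at -0.34 and -0.42. The lower one was ERAP2, an aminopeptidase that trims peptides (36.1, 41.8 and 85.6), at -1.33 and -1.06. TAPBP, or tapasin, which bridges TAP and the heavy chain, was at 0.23 and 0.06 at its brightest probe, A_23_P365719. The other TAPBP probes well above background on all arrays were at 0.03 and -0.03 (A_23_P259580) and at -0.05 and -0.16 (A_33_P3325914), and all of these values were above 0 with spike-in scaling. Both of the calls in this list were lost with normexp background correction.

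Other proteasome genes lay mostly above NC. These are PSMB10, the constitutive subunits PSMB5, PSMB6 and PSMB7, the activator subunits PSME1, PSME2 and PSME3, and POMP. Their median over 8 probes came to 0.34 for SMARCA4-KD1 and 0.32 for SMARCA4-KD2, beside -0.0006 and 0.02 over all probes, and 1 of 8 in SMARCA4-KD1 and 0 of 8 in SMARCA4-KD2 were below 0, beside 50% and 48.3%. POMP, the assembly factor of the proteasome, was at least 1.5-fold higher in both, with 1681 (SMARCA4-KD1), 1538 (SMARCA4-KD2) and 881 (NC). PSMB10, the remaining catalytic subunit of the immunoproteasome, had 19081, 18811 and 14385 in that order. PSMB10 was thus above NC in both knockdowns, at 0.32 and 0.35, where PSMB9 was below. With spike-in scaling 5 of these 8 probes were at least 1.5-fold higher in both, beside 19.5% of all probes.

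Regulators of class I genes were mixed. Of 20 probes of transcription factors, 0 were past 1.5-fold in both knockdowns, beside 6.56% higher and 8.00% lower over all probes. Their medians were 0.09 and -0.0025. With spike-in scaling 2 of the 20 were higher in both, beside 19.5% of all probes, and the medians were 0.39 and 0.31. NLRC5, the transactivator of class I genes, had signals of 61.3 (SMARCA4-KD1), 64.7 (SMARCA4-KD2) and 88.2 (NC) at 1 probe and was not well above background at its other one. It was below NC at -0.61 and, inside 1.5-fold, at -0.48, and with spike-in scaling both differences were inside 1.5-fold. IRF1, an interferon-induced activator of PSMB9 and TAP1, had 250.0, 194 and 208, and was on either side of NC at 0.18 and -0.13, the second of which is above 0 with spike-in scaling. The interferon receptor chain IFNAR1 (721, 671 and 432) was at least 1.5-fold higher in both, at 0.65 and 0.60. The IFNAR1 call was lost with the percentile over probes well above background and with normexp. IFNAR2, the other chain of that receptor, is named after its values were seen. It was below NC inside 1.5-fold at the 2 probes well above background on all arrays. These were at -0.30 and -0.44 (A_33_P3337540) and at -0.56 and -0.56 (A_33_P3361457), and the first of these values is not below 0 with spike-in scaling. With the percentile over probes well above background, A_33_P3361457 was past 1.5-fold lower in both. The remaining IFNAR2 probe, A_23_P211080, was not well above background in SMARCA4-KD1. It was at least 2.6-fold lower than NC there and at -0.85 in SMARCA4-KD2.

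Interferon-stimulated genes had 12 probes well above background on all arrays, of which 3 were at least 1.5-fold lower in both knockdowns (25%, beside 7.44% of all such probes) and 0 higher. Another 4 probes were past 1.5-fold on the lower side in both but well above background in NC alone, so they passed the filter only through the array where they are high. IFIT1, which binds foreign RNA, had signals of 344 (SMARCA4-KD1), 432 (SMARCA4-KD2) and 1145 (NC). IFI6, an interferon-induced antiviral protein, had 423, 432 and 878, and OAS3, which makes the messenger that activates RNase L, had 184, 189 and 333. NC was the high array for each, with differences of -1.82 and -1.44 for IFIT1, -1.14 and -1.05 for IFI6 and -0.94 and -0.85 for OAS3. With spike-in scaling OAS3 was inside 1.5-fold in SMARCA4-KD2, which ends its call. The median of the 12 probes was -0.24 and -0.11, beside 0.02 and 0.03 over all such probes. Spike-in scaling adds a constant larger than either of these medians and puts both above 0.

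Class II genes, which present peptides to CD4 T cells, had a median of -0.48 for SMARCA4-KD1 and -0.43 for SMARCA4-KD2 over 19 probes. With spike-in scaling it was -0.17 and -0.11, with normexp -0.32 and -0.23, and over the 17 probes well above background on all arrays -0.46 and -0.38. Of the 17, 3 were at least 1.5-fold lower in both (17.6%, beside 7.44%) and 0 higher. HLA-DPB1 A_23_P258769 had signals of 43.8 (SMARCA4-KD1), 38.8 (SMARCA4-KD2) and 129 (NC), which was the high array, and differed by -1.64 and -1.76. Its other called probe, A_24_P166443, differed by -1.59 and -1.46. HLA-DPB1 A_33_P3271651 was at -0.43 in SMARCA4-KD2, inside 1.5-fold. In SMARCA4-KD1 it was not well above background and at least 3.36-fold lower than NC. HLA-DPB1 A_33_P3271635 was well above background in NC alone, and A_33_P3271634 on no array. HLA-DPA1 A_23_P30913 had 53.7, 45.4 and 76.4 and differed by -0.59 and -0.78. The other HLA-DPA1 probe, A_33_P3234277, had 102, 89.9 and 87.0 and was not low, at 0.14 and 0.02. With quantile normalization, spike-in scaling or normexp, 2 of 19 class II probes were lower in both, beside 8.51%, 2.79% and 3.48% of all probes. Class I-like molecules and ligands of the receptor NKG2D had a median of 0.17 and 0.19 over 12 probes, and of 0.48 and 0.50 with spike-in scaling. Of the 12, 1 was higher in both and 1 lower, 8.33% each beside 6.97% and 7.44% of all probes well above background on all arrays. The higher one was HFE, which regulates iron uptake (40.8, 52.3 and 19.5). The lower one was A_23_P74928 of MR1, which presents vitamin metabolites (48.8, 43.4 and 76.5). The other MR1 probe, A_23_P431939, was at -0.71 and -0.19. Normexp ended both calls and spike-in scaling that of MR1. With spike-in scaling 3 of the 12 were higher in both, beside 19.5% of all probes.

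**Figure D4:**
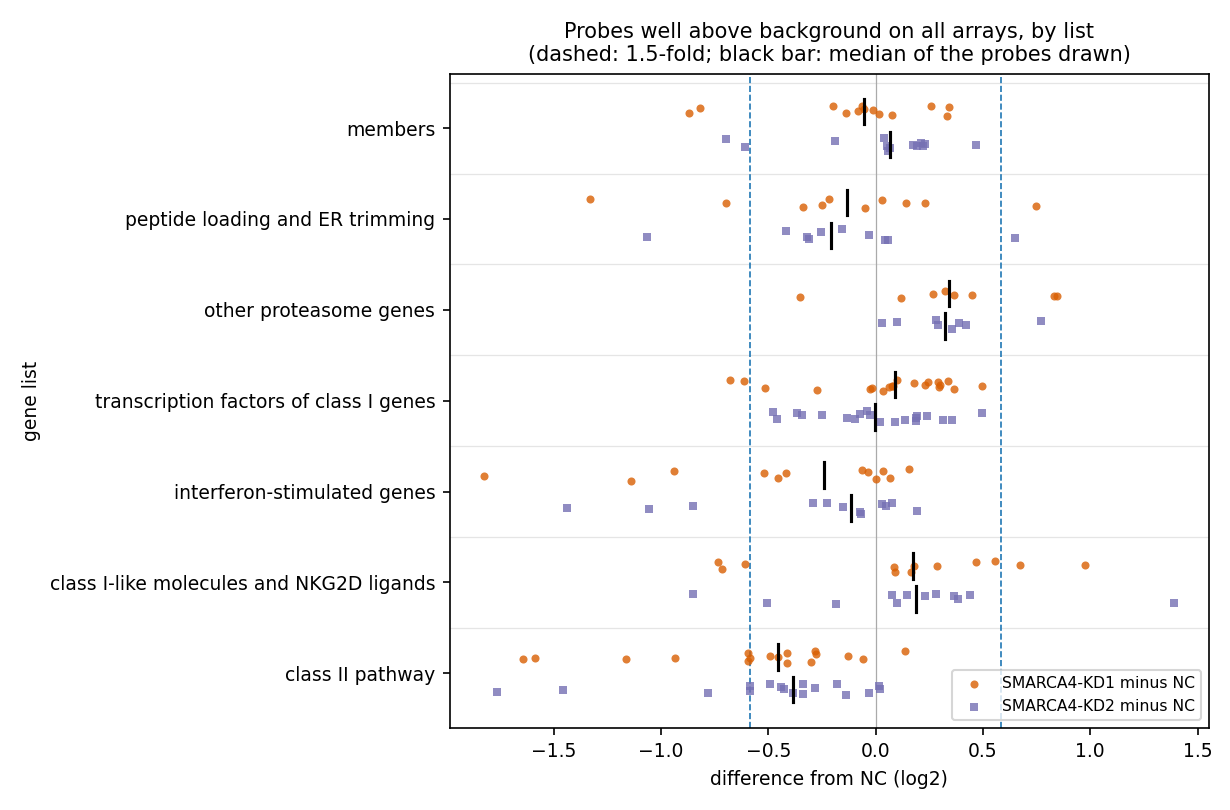
Difference from NC (log2, horizontal) of each probe well above background on all arrays, by list (vertical), with SMARCA4-KD1 as circles, SMARCA4-KD2 as squares, medians as bars and 1.5-fold dashed. The medians of the members are -0.05 and 0.07, those of the other proteasome genes 0.34 and 0.32 and those of the class II list -0.46 and -0.38, and spike-in scaling puts the members' first value above 0.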

How the data were processed

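Total RNA of 3 HCT116 cultures (SMARCA4-KD1, SMARCA4-KD2 and NC) was measured on Agilent arrays, 1 array per group, labelled with Cy3. The deposited values are in units of intensity: the authors extracted spots with Agilent Feature Extraction 10.7.1.1, with background subtraction and detrending and without normalization between arrays. The deposited flags of each spot (other columns) were used as given. Spots flagged as outliers (230, 194 and 83 of 62976) were left out, log2 values of repeated spots were averaged, and the array's 75th percentile over all probes (237, 228 and 223) was subtracted. Signals not well above background were raised to a floor, the array's lowest signal well above it (16.9, 16.2 and 17.7), where they were under that floor, and a fold against such a signal is a limit. The probes tested (29334) had a value on all arrays and were well above background on 1 or more. The share well above background was 46.8%, 47.3% and 45.7% of an array's probes. Precision is limited by the number of arrays, and dim probes are limited by their background.

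A probe was past the fold at 1.5-fold, with no test for a single knockdown. limma 3.58.1 (R 4.3.3) with an intensity trend compared both knockdowns with NC, with Benjamini-Hochberg adjustment. Alternatives were the percentile of only those probes that all arrays had well above background, quantile normalization, the mean of 8 spike-in probes, normexp with an offset of 50, the series-level table, no floor, outlier spots kept, other filters, 2-fold and the brightest probe of each gene. For limma they were no trend, other filters and scalings, and a t-test with p 0.01. Probe sharing and motifs were counted with Python 3.11.15, numpy 2.4.6 and pandas 2.3.3, tests used scipy 1.17.1 and plots matplotlib 3.10.9. The fold calls and the limma fit were tested on simulated data, with changes added to values already scaled and filtered. The scaling, background and sequence steps were not simulated.

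Named genes are the members, SMARCA4 and PRMT1, genes of the pathway lists with a probe well above background on all arrays and at least 1.5-fold from NC in the same direction in both knockdowns, and a few genes whatever their values, among them HLA-G, TAPBP, PSMB10, NLRC5 and IRF1. The members and lists were chosen with earlier results of these data known. Other arrays and data of the study were not used.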

Additional observations from a re-analysis of the deposited data

Results flagged for a closer look

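At 5 member probes SMARCA4-KD1 was below NC and SMARCA4-KD2 above it, which set them apart from probes that lay on 1 side in both. The difference between the knockdowns was -0.19 at HLA-B A_33_P3424800, -0.26 at HLA-C A_33_P3330109, -0.24 at HLA-C A_33_P3424803, -0.11 at HLA-E A_32_P460973 and -0.26 at HLA-E A_33_P7431456, all log2. These differences were not tested, since each knockdown had 1 array, and the software's error of such a difference was 0.20. With spike-in scaling the 5 probes were above NC in both knockdowns. With normexp both probes named HLA-C, and HLA-E A_32_P460973, were above NC in both, and with quantile normalization HLA-B A_33_P3424800 and HLA-E A_32_P460973 were below it in both. A_33_P3424803, named HLA-C, overlaps HLA-B A_33_P3424800, so these are not independent readings.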

How the results depend on the processing

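No paired analysis was possible because each group had 1 array, and for the same reason no array could be left out. The series-level table and the omitted floor leave the values of single member probes as they were by construction, since the 13 probes lie above the floor and the table holds the same signals. Spike-in scaling moves all differences from NC by more than the software's error, also by construction. The remaining alternatives moved single member probes by less than that error. Without spike-in scaling PSMB9 ran from -0.87 to -0.76 in SMARCA4-KD1 and from -0.74 to -0.64 in SMARCA4-KD2, HLA-F A_33_P3379967 from -0.93 to -0.71 and from -0.65 to -0.50, and TAP1 from 0.24 to 0.34 and from 0.39 to 0.48.

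Spike-in scaling, which adds 1 constant to each comparison, gave 2 member probes higher and 0 lower in SMARCA4-KD1 (all probes 26.8% and 4.99%) and 1 higher and 0 lower in SMARCA4-KD2 (27.4% and 3.47%), with medians of 0.25 and 0.38 and 13 probes on the same side. SMARCA4 was then at -1.61 and -1.48 and PRMT1 at 0.57 and 0.69. At 2-fold, 0 of 13 member probes were lower in either knockdown, beside 3.51% and 2.51% of all probes. With the brightest probe of each gene, 1 of 8 was lower in each, since HLA-F A_33_P3379967 is not the brightest of its gene. Over all genes, 12.3% and 9.77% of such probes were lower. With normexp, whose offset shrinks differences of dim probes, 2 of 13 were lower in SMARCA4-KD1 (all probes 5.49%) and 1 in SMARCA4-KD2 (4.13%). limma called 3 of 13 member probes with the filter on all arrays (all probes 26.4%), 6 of 15 with no filter (66.4%), 1 with quantile normalization (10.6%), 2 with spike-in scaling (21.8%) and 2 with normexp (14.2%), and 0 without the trend (0). Of the 6, the PSMB8 probe and TAP2 A_23_P368067 were set to a floor that differs between arrays, and the cause of the other changes in limma was not tested. The t-test called 573 of 29334 probes at p 0.01 with 1.5-fold, 0 of them members, and 0 after adjustment. Over all probes, counts past the fold fell to 1908 higher and 1609 lower in SMARCA4-KD1 with normexp. Arrays give no counting limit, and dim probes such as those of PSMB8 gave no fold.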
